A study of Arabidopsis thaliana with 24 samples.

Results

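Rosettes of the Arabidopsis thaliana mutant mil4 were compared with rosettes of Col, both sprayed with the defence activator BTH, using the 8 arrays whose titles name BTH, of 24 arrays in all. Each group held 4 arrays labelled as biological replicates, and the fit of mil4 against Col used no other array. The other 16 arrays were sprayed with water, 4 each of Col, mil4, sid2 and the double mutant mil4 sid2. Those of Col and mil4 were used to compare treatments, and all 16 served where a spread estimated over all 24 arrays is given. The sid2 mutation disrupts the main route of salicylic acid synthesis. Col is the wild-type accession. The mutant's name stands for mildew-induced lesions, and the title of the series links the gene to salicylic acid defence. Plants of both groups were grown at 22 °C with a photoperiod of 14 h, were sprayed with 300 µM BTH, and their rosettes were harvested 2 days later at an age of 4 weeks. The allele of mil4, its locus and the number of plants in a sample were not given in the sources used here, so the mutated gene could not be examined as a check of the labels. P-values set the differences between groups against the spread between these arrays.

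Salicylic acid is the hormone that plants make after attack by pathogens that feed on living cells. It acts through the coactivator NPR1 and TGA transcription factors to switch on defence genes and systemic resistance. BTH (benzothiadiazole) is a synthetic analog that acts downstream of salicylic acid synthesis and brings on much of the same response without the hormone being made. Jasmonate and ethylene control a separate set of defence genes, among them plant defensins, and the branches restrain each other in leaves. Sprayed with BTH, both genotypes receive the same external activator, so the comparison asks how the mutant differs once that branch of defence has been switched on.

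In BTH-treated rosettes, genes of the mutant that lay above Col included the evening clock gene COR27, the peroxidase gene Prx37 and a group of loci known here only by their codes. Genes below Col included the wall-loosening expansin EXPA8, the ubiquitin ligase PUB26 and many loci that were also low in water-sprayed mil4. Of 22746 probe sets tested, 82 were higher and 119 lower in mil4, together 201 or 0.884% (0.361% higher and 0.523% lower), at an adjusted p under 0.05 by limma with Benjamini-Hochberg adjustment over all probe sets. Of these, 62 were at least 2-fold higher (0.273%) and 69 at least 2-fold lower (0.303%), and the smallest fold difference that passed was 1.51. All 201 separated the groups without overlap, as did 9.91% of all probe sets tested (4.95% upward and 4.96% downward). The annotation gave 1 gene for 82 of the 201 probe sets, 32 higher and 50 lower, or 0.614% of the 13356 named loci. The other 119 had several genes (1) or no name (118), and the unnamed ones held the largest differences that passed in both directions, a rise of 9.56-fold and a fall of 5.14-fold.

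The number that passed rested on each array. Leaving out 1 array at a time gave from 0 to 154 probe sets. It gave 2 without Col replicate 1, 154 without Col replicate 2, 0 without Col replicate 3, 0 without Col replicate 4, 0 without mil4 replicate 1, 50 without mil4 replicate 2, 4 without mil4 replicate 3 and 116 without mil4 replicate 4. Where none passed by limma, 2570, 2718 and 2770 probe sets still had an unadjusted p under 0.05, against 3153 (13.9%) with all 8 arrays. No probe set passed with the hybridization day as a block, where 3382 had an unadjusted p under 0.05. With 1 spread estimated over all 24 arrays, 748 passed, 173 of the 201 among them.

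**Figure D1:**
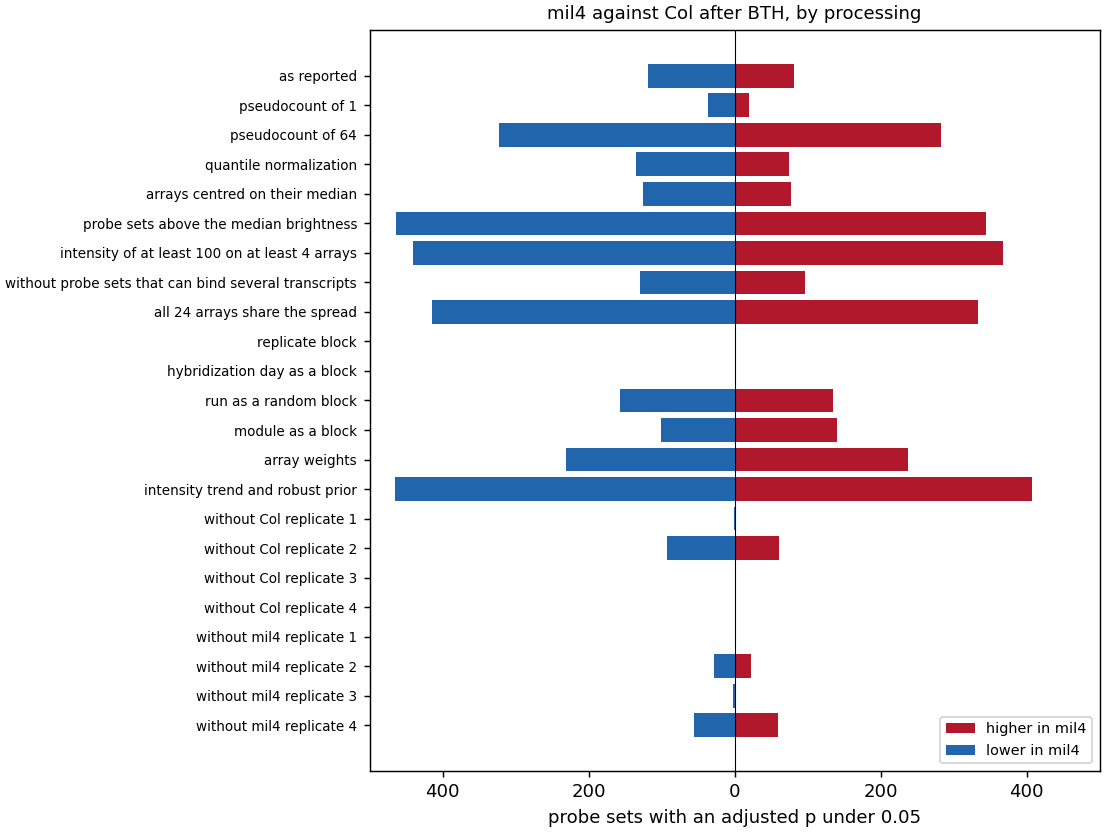
Number of probe sets with an adjusted p under 0.05 (x axis) for mil4 against Col after BTH under each processing (y axis), with those higher in mil4 to the right in red and those lower to the left in blue. The bars are absent for the replicate block, the day block and 3 of the settings that leave out 1 array.

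The 8 arrays were alike in overall signal. The median intensity ran from 170.4 to 175.7 in mil4 and from 161.8 to 171.1 in Col, and 15.31% to 17.48% of probe sets lay under an intensity of 16. Pairs of mil4 arrays correlated between 0.96 and 0.9807, pairs of Col arrays between 0.9733 and 0.9796, and pairs across genotypes between 0.9548 and 0.9805. The lowest mean correlation with its own group was that of mil4 replicate 3 (0.9661), followed by mil4 replicate 4 (0.9676). The ubiquitin 3′ to 5′ signal ratio, a measure of RNA integrity, was 1.787 ± 0.098 in mil4 and 2.215 ± 0.262 in Col (SD, n = 4 each), with an exact two-sided permutation p of 0.02857, the smallest that 4 against 4 allows, and 0.1429 adjusted over 5 quality measures. The actin ratio was far higher and lay the other way, at 12.14 ± 4.09 in mil4 and 10.33 ± 1.94 in Col (permutation p 0.4857). The GAPDH ratio was 0.855 ± 0.134 in mil4 and 0.947 ± 0.136 in Col (permutation p 0.4). The 8 arrays were hybridized on 3 days. Grouped here by closely spaced hybridization times, they fell into 6 runs, and 1 run held arrays of both groups. The headers of the array files placed these 8 arrays on modules 2 and 4, and the water arrays of Col and mil4 on modules 1 and 3. Where treatments are compared, treatment and module therefore cannot be told apart. The part of RNA integrity and of the day in the gene differences was not tested gene by gene beyond the day block above. In whole rosettes, more cells of a type and more RNA per cell cannot be told apart.

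Among the 12 largest rises of named loci, AT2G44240, on chromosome 2, had the smallest standard error. Its intensities were 6791, 6157, 5826 and 6597 in the mil4 replicates 1 to 4, and 2055, 1900, 1464 and 1380 in those of Col. The arrays of each genotype lay close together, and the lowest mil4 array was far above the highest Col array. The log2 fold change, on the scale of log2(intensity + 16) used throughout, was 1.91 (SE 0.15), or 3.75-fold, with an adjusted p of 0.01 from limma, the lowest of all probe sets and shared with 1 unnamed one. It passed without mil4 replicate 3 as well, with a log2 fold change of 1.95 and an adjusted p of 0.0381.

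AT1G26390 showed the largest rise of a named locus, 6.25-fold (log2 2.64, SE 0.45, adjusted p 0.0428 by limma). Its intensities were 1471, 649.8, 1778 and 413.3 in mil4 and 134.3, 202.7, 115.1 and 99.6 in Col. The mil4 arrays spread widely, with replicates 1 and 3 high and replicate 4 lowest, yet the lowest stayed above the highest Col array. The neighbouring code AT1G26380 followed the same array order at the top, with intensities of 1032, 495.2, 1248 and 539.6 in mil4 against 167.2, 284.7, 137.8 and 194.0 in Col. Its difference was 3.81-fold (log2 1.93, SE 0.33, adjusted p 0.0436). Without mil4 replicate 3 the adjusted p was 0.0851 for AT1G26390 and 0.0884 for AT1G26380.

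AT1G33950 was at 195.4, 133.5, 358.3 and 164.9 in mil4 and at 17.6, 32.0, 31.1 and 29.5 in Col, a rise of 4.99-fold (log2 2.32, SE 0.27, adjusted p 0.0248). It was low in Col on every array, and it passed without mil4 replicate 3, with a log2 fold change of 2.05 and an adjusted p of 0.0381. AT1G17615 was at 59.1, 49.6, 207.2 and 66.9 in mil4 against 14.9, 2.7, 2.8 and 7.1 in Col. All its Col intensities were below the pseudocount of 16, so its fitted 4.37-fold difference depends on that constant (log2 3.63 with a pseudocount of 1 and 1.08 with 64). For AT1G33950 the values were 2.84 and 1.54.

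COR27, which encodes an evening-phased repressor in the clock that responds to cold, rose 4.49-fold (log2 2.17, SE 0.27, adjusted p 0.0248 by limma). It read 284.3, 355.9, 278.1 and 448.3 in mil4 and 40.6, 116.2, 52.5 and 57.1 in Col. Col replicate 2 was the highest Col array and still well below the lowest mil4 array. COR27 was the 1 member of 7 measured on the cold list, and of 5 on the clock list, that passed. GI, a clock gene of the evening, had a log2 fold change of 0.29 and the cold-protection genes COR15A and COR15B 0.09 and 0.37, with adjusted p of 0.342, 0.959 and 0.571.

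Prx37, a secreted peroxidase of the class that acts in cell walls, rose 4.01-fold (log2 2.00, SE 0.35, adjusted p 0.0461). Its intensities were 496.7, 263.3, 679.7 and 221.7 in mil4 and 105.5, 54.4, 75.8 and 101.1 in Col. Replicates 1 and 3 were the high arrays of mil4, as for AT1G26390, and with the spread of all 24 arrays the adjusted p was 0.128. Among the other rises, AT3G54150 was at 722.3, 621.5, 921.3 and 473.9 in mil4 against 147.9, 343.1, 154.8 and 148.0 in Col, 3.38-fold higher (log2 1.76, SE 0.30). AT1G17665, AT1G53620, AT5G49690 and AT1G15850 completed the 12 largest rises, with log2 fold changes of 2.06, 1.89, 1.73 and 1.62, and they were dim in Col, at intensities from 1.1 to 43.5. Their sizes depend on the pseudocount: with 1 and with 64 in place of 16, the log2 fold change was 3.65 and 1.06 for AT1G17665, 2.54 and 1.13 for AT1G53620, 3.26 and 0.78 for AT5G49690, and 3.46 and 0.68 for AT1G15850.

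Over these 12 loci, mil4 replicate 3 was the highest mil4 array in 8, and without it the median log2 fold change was 1.73 in place of 1.96. The median was 2.62 on hybridization day 1, 1.59 on day 2 and 1.64 on day 3. The only mil4 array of day 1 was replicate 3, so that array and the day cannot be told apart. Day 2 set mil4 replicate 4 against Col replicate 1 alone. All 12 loci kept their direction on each day, which the choice of loci without overlap between the groups fixes. Of the 12, 2 passed without mil4 replicate 3, and 11 passed with the spread of all 24 arrays, Prx37 being the exception.

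Further rises carried a symbol and were picked after their values were seen, as the largest differences did not include them. ARL, an ARGOS-like gene that promotes cell expansion in leaves, was at 1131, 769.2, 1255 and 740.4 in mil4 against 505.1, 389.3, 379.8 and 404.6 in Col (2.23-fold, log2 1.16, SE 0.20, adjusted p 0.043 by limma). CHI, locus AT2G43570, was bright in both genotypes, at 13606, 11471, 14334 and 10784 in mil4 and 6679, 7677, 7016 and 6154 in Col (1.82-fold, log2 0.86, SE 0.13, adjusted p 0.0383). With the spread of all 24 arrays the adjusted p of CHI was 0.239.

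**Figure D2:**
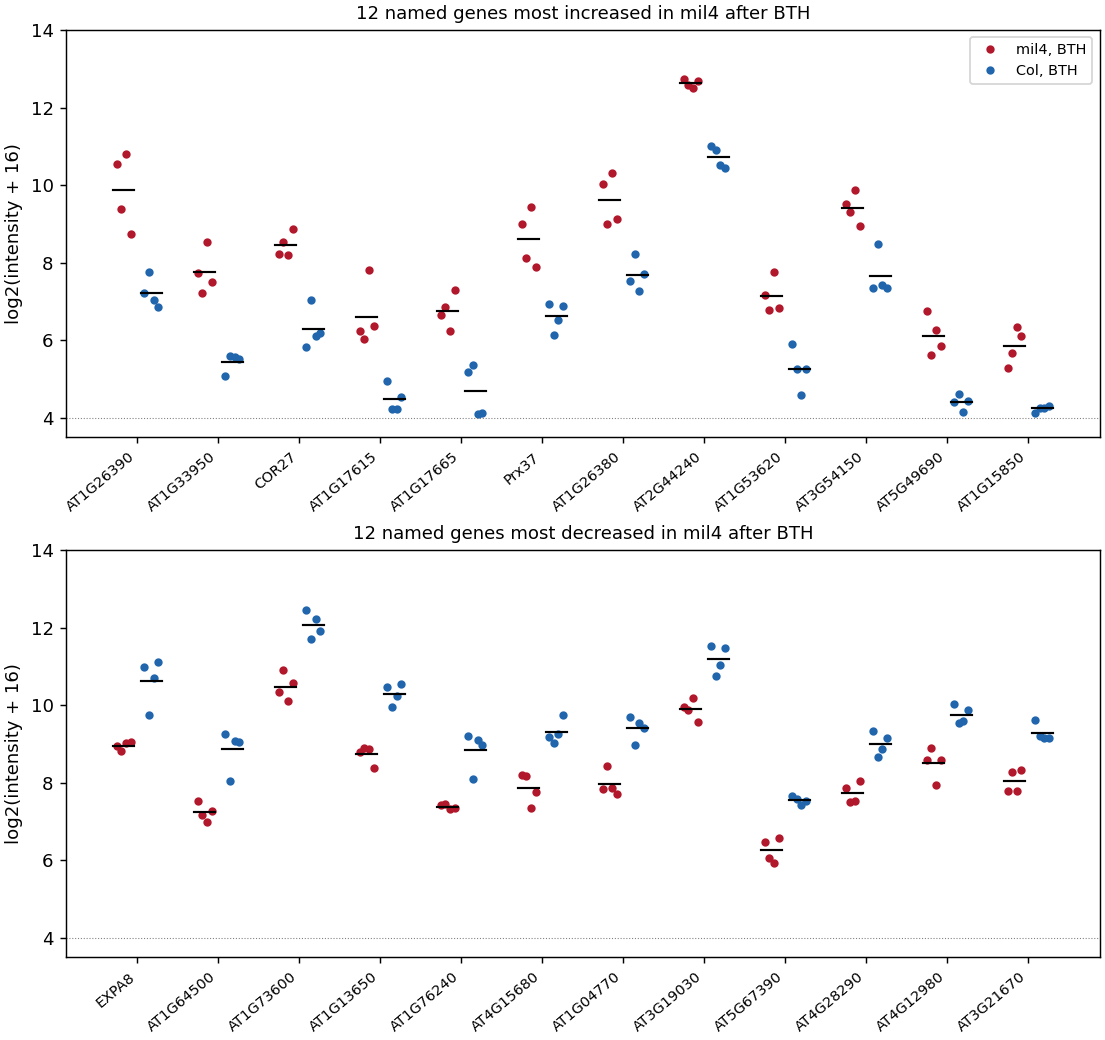
log2(intensity + 16) on each of the 8 BTH arrays (points; left to right, replicates 1 to 4) for the 12 largest rises (upper panel) and the 12 largest falls (lower panel) among named loci. Red points are mil4 and blue points Col, black lines are group means, and the dotted line marks an intensity of 0; the groups overlap for none of the 24 loci.

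Among the falls, EXPA8 came first. It encodes an alpha-expansin, a protein that loosens the cell wall so that cells can expand. Its intensities were 475.4, 434.9, 506.9 and 512.6 in mil4 and 2021, 847.6, 1647 and 2190 in Col. The mil4 arrays lay close together, while Col replicate 2 was well below the other Col arrays. The difference was 3.2-fold (log2 -1.68, SE 0.28, adjusted p 0.0413 by limma), and it was -1.70 with an adjusted p of 0.089 without mil4 replicate 3. EXPA8 was the 1 expansin of 19 measured that passed. The beta-expansin EXPB1 was at 101.9, 97.8, 9.9 and 110.6 in mil4 against 207.8, 161.0, 228.2 and 254.2 in Col. Its log2 fold change of -1.47 (adjusted p 0.212) became -0.92 (adjusted p 0.0845) without mil4 replicate 3, whose value stood far below the rest. EXPB3 was at 243.6 to 360.4 in mil4 and 364.6 to 548.8 in Col (log2 -0.70, adjusted p 0.125). The other expansins lay between -0.29 and 0.67, and the median of all 19 was 0.16, against 0.03 for all probe sets.

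AT1G73600, a bright locus on chromosome 1, was at 1286, 1909, 1085 and 1504 in mil4 and 5594, 3310, 4777 and 3839 in Col, 3.01-fold lower (log2 -1.59, SE 0.22, adjusted p 0.0254 by limma). AT1G13650 was at 425.5, 458.8, 455.8 and 316.8 against 1404, 976.2, 1190 and 1472, 2.96-fold lower (log2 -1.57, SE 0.18, adjusted p 0.0247). AT3G19030 was at 970.1, 928.6, 1157 and 749.1 against 2965, 1701, 2077 and 2848, 2.46-fold lower (log2 -1.30, SE 0.21, adjusted p 0.0407). In each of these the highest mil4 array was below the lowest Col array, and Col replicate 2 was the lowest of Col.

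AT3G21670, listed with the synonym NPF6.4 of the nitrate transporter family, was at 203.4, 294.3, 204.6 and 307.0 in mil4 and 776.6, 574.3, 558.7 and 556.4 in Col. It was 2.37-fold lower (log2 -1.25, SE 0.18, adjusted p 0.0294). The remaining large falls were AT1G64500, AT1G76240, AT4G15680, AT1G04770, AT5G67390, AT4G28290 and AT4G12980, with log2 fold changes from -1.62 to -1.26. Over the 12 largest falls, Col replicate 2 was the lowest Col array in 10 and Col replicate 1 the highest in 9. The median log2 fold change was -1.44, and -1.40 without mil4 replicate 3, where none of the 12 passed (adjusted p from 0.0516 to 0.0962). By hybridization day the median was -1.66 on day 1, -1.87 on day 2 and -0.86 on day 3, the day that held Col replicate 2.

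PUB26, a U-box ubiquitin ligase that marks the immune kinase BIK1 for breakdown, was at 293.9, 279.7, 246.3 and 299.4 in mil4 and 465.0, 507.1, 478.4 and 509.9 in Col. It fell by 0.78 on the log2 scale (SE 0.11, 1.71-fold, adjusted p 0.0254 by limma). Its closest relative PUB25 was at 121.6 to 137.5 in mil4 and 155.6 to 252.2 in Col (log2 -0.71, adjusted p 0.0862). PUB24, a ligase that restrains pattern-triggered immunity, lay the other way, at 455.6 to 661.2 in mil4 and 290.9 to 348.2 in Col (log2 0.72, adjusted p 0.0573). Of 9 U-box ligases measured, PUB26 alone passed. SNZ, an AP2-type repressor of flowering picked after its value was seen, was at 83.5 to 129.3 in mil4 and 167.9 to 228.5 in Col (log2 -0.89, SE 0.15, adjusted p 0.043).

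The glycosyltransferases that attach sugars to hormones and other small molecules moved in both directions. Of 51 UDP-glycosyltransferases measured, 1 passed as higher and 1 as lower, and the median log2 fold change was 0.07. UGT72E2, which glucosylates the alcohols from which lignin is built, was at 175.0, 170.4, 221.1 and 215.8 in mil4 and 91.1, 99.6, 89.6 and 86.3 in Col (1.96-fold, log2 0.97, SE 0.12, adjusted p 0.0248). UGT76E12 was dim, at 4.2, 1.1, 9.5 and 5.1 in mil4 and 25.1, 30.9, 28.0 and 37.9 in Col. Its log2 fold change of -1.16 (adjusted p 0.0248) ran from -2.60 with a pseudocount of 1 to -0.45 with one of 64, so its size is not fixed by these data. UGT73D1 was at 512.6, 295.2, 632.3 and 191.5 in mil4 against 74.7, 107.2, 108.8 and 83.8 in Col, a log2 fold change of 1.83 that missed the threshold at an adjusted p of 0.0518.

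**Figure D3:**
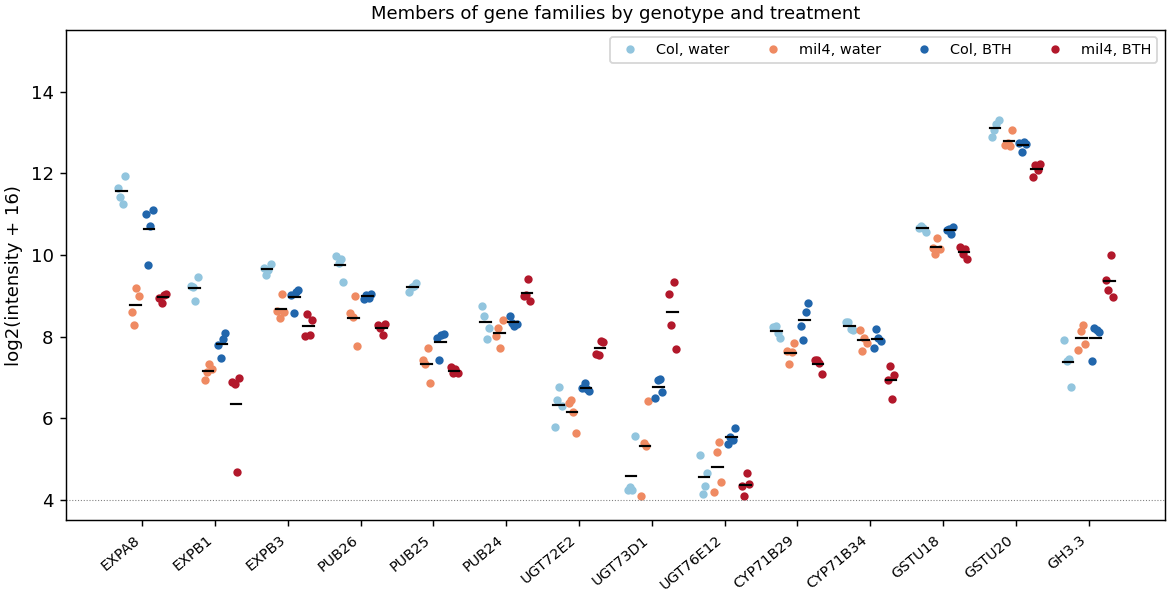
log2(intensity + 16) on each array of 4 groups (points; black lines are group means) for expansins, U-box ligases, UDP-glycosyltransferases, cytochromes P450, glutathione transferases and GH3.3. Dark red points (mil4 with BTH) lie below dark blue points (Col with BTH) for EXPA8, EXPB1, EXPB3, PUB26, PUB25, UGT76E12, CYP71B29, CYP71B34, GSTU18 and GSTU20 and above them for PUB24, UGT72E2, UGT73D1 and GH3.3.

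No member of the salicylic acid lists passed. The lists name 26 genes of synthesis and modification, 34 of signalling and 29 of response, and the annotation paired 4, 1 and 2 of them with a probe set. GRX480, a glutaredoxin induced by salicylic acid that binds TGA factors, was at 452.5, 314.5, 512.6 and 333.2 in mil4 and 727.6, 452.0, 498.1 and 447.4 in Col. Its log2 fold change was -0.38, with a 95% interval from -0.87 to 0.10 and an adjusted p of 0.475. The transcription factor WRKY53, a promoter of senescence and defence, was at 1443, 1033, 2117 and 1179 against 1775, 844.1, 1730 and 1748 (log2 -0.07, 95% interval -0.76 to 0.61). SAG101, which works in immune signalling together with EDS1, differed by 0.28 (95% interval -0.20 to 0.75). For these 3 genes the groups overlapped, and all 3 intervals include 0 without showing that the genotypes act alike.

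Of the enzymes that modify salicylic acid, UGT76B1, which also glucosylates the defence signal isoleucic acid, was at 72.3, 22.8, 221.3 and 52.7 in mil4 and 11.4, 29.6, 17.4 and 39.0 in Col (log2 1.15, adjusted p 0.356). The array mil4 replicate 3 was the highest, and the value was 0.67 without it. UGT74F1, which makes the glucoside of salicylic acid, was listed below 10 on all mil4 arrays and at 49.9, 9.8, 41.4 and 4.0 in Col (log2 -0.74, adjusted p 0.423).

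The genes of pattern-triggered immunity and of the secretory pathway did not pass either. On the first list 7 of 53 genes were measured, with a median log2 fold change of -0.04. BIK1, the receptor-linked kinase that PUB26 targets, was at 822.5 to 1320 in mil4 and 779.1 to 1242 in Col (log2 -0.04, 95% interval -0.49 to 0.41). On the second list 5 of 44 were measured and all lay between 0.04 and 0.23. ATERDJ3B, a co-chaperone of the endoplasmic reticulum, had a log2 fold change of 0.21 (95% interval -0.18 to 0.60), and CRT1b, a calreticulin that helps glycoproteins fold there, 0.06 (95% interval -0.20 to 0.33).

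Jasmonate-responsive defence genes gave the largest differences among the members of all lists, and none passed. PDF1.2, the plant defensin used as a marker of jasmonate and ethylene signalling, was at 1281, 766.1, 3158 and 218.6 in mil4 and 79.2, 102.3, 59.9 and 106.5 in Col. Every mil4 array was above every Col array, but the mil4 arrays ranged widely, with replicate 3 highest and replicate 4 lowest. The log2 fold change was 3.20 (SE 0.67, 9.22-fold), with an adjusted p of 0.0693 by limma, and 2.61 without mil4 replicate 3 (adjusted p 0.106). With the spread of all 24 arrays its adjusted p was 0.0366. The mean of PDF1.2 on the log2 scale was 9.87 with water and 9.86 after BTH in mil4, and 9.35 and 6.66 in Col. The change of the genotype difference between treatments was 2.68 (SE 1.26) and did not pass (adjusted p 0.509 by limma). The near copy PDF1.2b, whose probe set can bind several transcripts, read 1292, 703.3, 2290 and 117.1 in mil4 and 60.6 to 87.5 in Col. Its log2 fold change was 3.04 (adjusted p 0.111), and it did not pass with the spread of all 24 arrays either (adjusted p 0.0902). Signals of the pair cannot be told apart.

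THI2.1, a thionin induced by jasmonate, was at 113.8, 114.8, 225.4 and 127.2 in mil4 and 28.7, 19.3, 39.9 and 68.5 in Col. It had a log2 fold change of 1.57 (SE 0.30, 2.98-fold) and an adjusted p of 0.054, or 0.00819 with the spread of all 24 arrays. OSM34, an osmotin-like defence protein, was at 1283, 380.8, 1806 and 289.0 against 284.3, 87.3, 73.0 and 112.9 (log2 2.41, SE 0.63, adjusted p 0.127, or 0.0433 with all 24 arrays). For OSM34 the lowest mil4 array and the highest Col array nearly met. Of the 9 members measured of 54 listed, 4 separated the groups upward (against 4.95% of all probe sets), namely PDF1.2, PDF1.2b, THI2.1 and OSM34. As the signals of PDF1.2 and PDF1.2b cannot be told apart, the 4 may count 1 signal more than once. The regulators on the list did not follow: MYC3, MYC4 and EIN3 had log2 fold changes of 0.26, -0.23 and 0.10. ORA47, a factor that activates jasmonate synthesis, was at 60.6 to 120.9 in mil4 and 94.5 to 404.6 in Col (log2 -1.09, adjusted p 0.261).

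**Figure D4:**
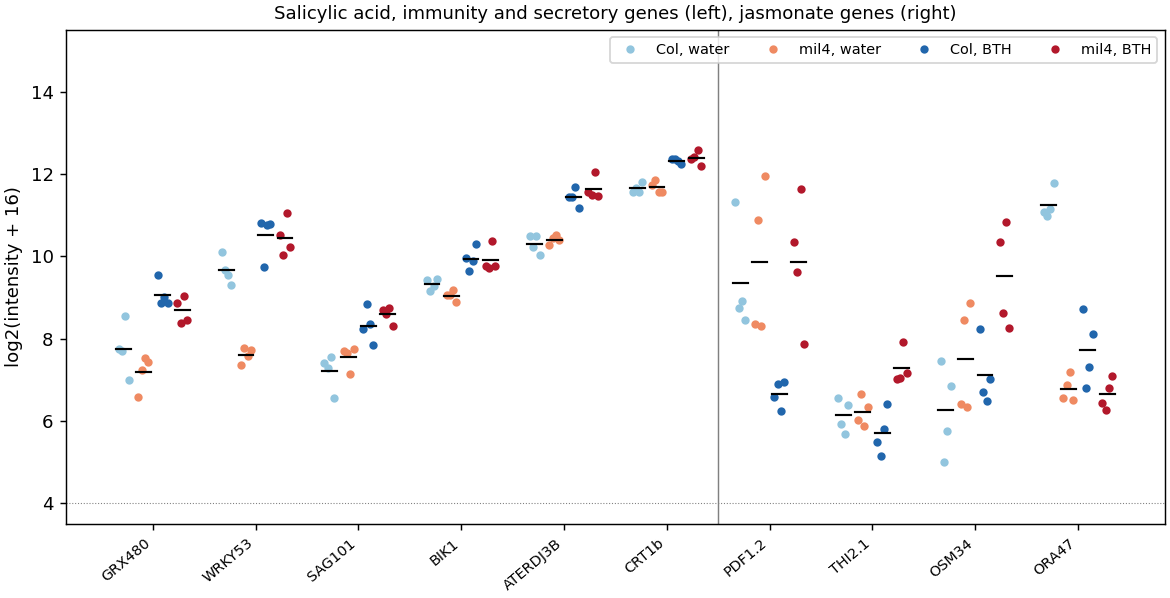
log2(intensity + 16) on each array of 4 groups (points; black lines are group means) for genes of salicylic acid response, immunity and the secretory pathway, left of the grey line, and jasmonate genes, right of it. After BTH, mil4 (dark red) and Col (dark blue) overlap for the 6 genes on the left and for ORA47, and do not overlap for PDF1.2, THI2.1 and OSM34.

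Several metabolic genes lay outside the threshold without overlap between the groups. CYP71B29 and CYP71B34, cytochromes P450, had log2 fold changes of -1.08 and -1.0 (adjusted p 0.0518 and 0.0537). CYP71B22 lay the other way, at 564.6 to 879.7 in mil4 and 421.1 to 487.7 in Col (log2 0.68, adjusted p 0.0776), and none of 22 P450 genes passed. The glutathione transferases GSTU18 and GSTU20 were at -0.55 and -0.58 (adjusted p 0.0627 and 0.0656). GSTU25 was dim and lay above Col, at 22.7 to 26.8 in mil4 and 1.8 to 12.6 in Col (log2 0.83, adjusted p 0.0579), and none of 14 passed. GH3.3, an enzyme that joins amino acids to auxin, was at 486.7 to 999.6 in mil4 and 152.0 to 279.7 in Col (log2 1.40, adjusted p 0.0524). MCCA, a subunit of an enzyme of leucine breakdown, was at 557.0 to 956.9 and 292.2 to 468.6 (log2 0.80, adjusted p 0.139). With the spread of all 24 arrays, CYP71B29, CYP71B34, GSTU18, GSTU20, GH3.3 and MCCA passed, with adjusted p from 0.00147 to 0.0103, as did CYP71B22 (0.0327), while GSTU25 did not (0.117).

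No cell type marker passed either. RCA and PSAN, genes of carbon fixation and photosystem I that mark leaf mesophyll, were bright on all 8 arrays. RCA was at 19077 to 23829 in mil4 and 23350 to 29222 in Col (log2 -0.17, 95% interval -0.46 to 0.12), and PSAN at 14054 to 16180 and 14560 to 18372 (log2 -0.06, 95% interval -0.32 to 0.20). Few listed markers were measured: 2 of 20 for leaf mesophyll, 3 of 17 for guard cells, 2 of 15 for trichomes and 1 of 23 for vasculature. For dividing cells, roots and flowers it was 2 of 23, 4 of 19 and 1 of 16. The log2 fold changes of the 13 measured outside mesophyll ran from -0.67 (TRY, trichome) to 0.67 (EXPA7, root).

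Set beside water-sprayed plants, more falls than rises of mil4 passed the threshold with both treatments, while most of both kept their direction. The water comparison used other arrays, 4 of mil4 and 4 of Col, and 956 probe sets passed in it (4.2%; 401 higher, 1.76%, and 555 lower, 2.44%). Both comparisons shared 71 probe sets past the threshold, 35.3% of those after BTH and 7.43% of those with water, and 70 of the 71 had the same direction. Of the 119 that fell after BTH, 58 also passed as lower with water (48.7%), and of the 82 that rose, 12 also passed as higher (14.6%). By direction alone, 67 of the 82 rises and 99 of the 119 falls had the same sign with water, against 58.7% of all. None of these shares tests whether falls and rises differ. The rises after BTH had a median log2 fold change of 1.44 there and 0.58 with water, and the falls -1.03 and -0.71. The other way round, the 401 water rises had a median of 0.96 with water and 0.30 after BTH, and the 555 water falls -0.97 and -0.41.

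EXPA8 was 6.93-fold lower with water (log2 -2.79, adjusted p 0.000583) and 3.2-fold lower after BTH. COR27 was 7.87-fold higher with water (log2 2.98, adjusted p 0.00139), and AT2G44240 8.0-fold higher (adjusted p 0.0167). AT1G33950, AT1G17615, AT1G26390 and Prx37 had water log2 fold changes of 0.10, 0.15, 0.75 and 0.56, with adjusted p of 0.94, 0.787, 0.538 and 0.828. The difference between treatments itself was tested as the genotype by BTH interaction over 16 arrays, and none of the 12 largest rises passed it (adjusted p from 0.0633 to 0.718).

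**Figure D5:**
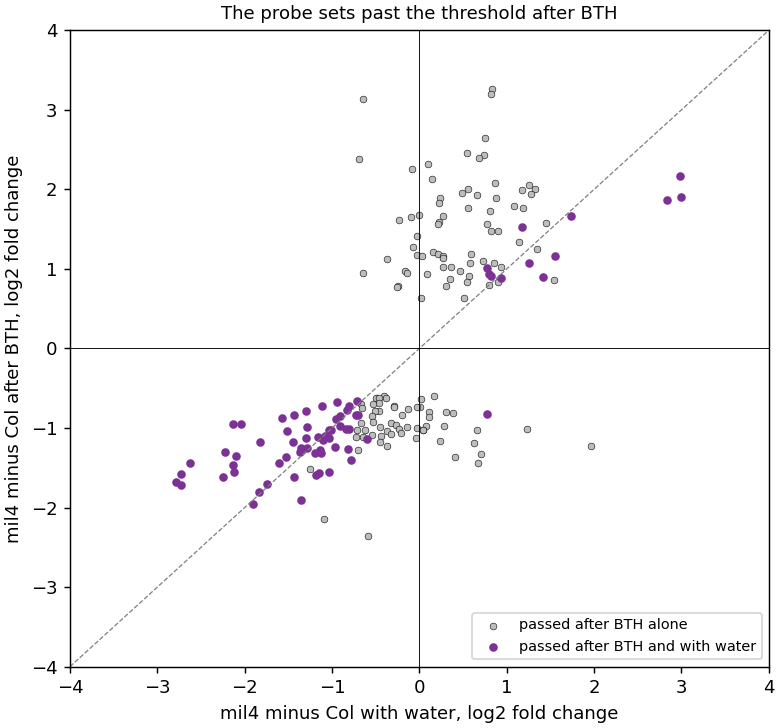
log2 fold change of mil4 over Col with water (x axis) and after BTH (y axis) for the 201 probe sets that passed after BTH. Purple points also passed with water, grey points did not, and the dashed line marks equal values. Most falls lie at the lower left. Of the 82 rises, 70 lie above the dashed line, while COR27, AT2G44240 and CHI are among the 12 that do not. Of the 119 falls, 83 lie below it. As the points were chosen for their difference after BTH, these counts do not show that differences grow with BTH.

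The interaction passed for 115 probe sets (0.506%; 71 higher, 0.312%, and 44 lower, 0.193%), 11 of them among the 201. With each array centred on its median, 61 were higher and 60 lower. AT4G15680 fell after BTH (log2 -1.44, adjusted p 0.0398) from intensities of 505.3 to 850.7 in Col to 146.6 to 278.4 in mil4. With water its log2 fold change was 0.67 (adjusted p 0.0952), and the interaction was -2.11 (SE 0.31, adjusted p 0.00788 by limma). The other named loci that passed both tests were AT3G06070, AT3G62930 and AT3G13980, lower after BTH by 1.01, 1.03 and 0.86 on the log2 scale. Their interactions were -2.24, -1.69 and -0.97 (adjusted p 0.02, 0.00788 and 0.0307).

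For some genes the difference with water was larger than that after BTH. STZ, a zinc-finger repressor induced by stress, had log2 fold changes of -2.74 with water and 0.16 after BTH (95% interval -0.66 to 0.98), and an interaction of 2.90 (SE 0.44, adjusted p 0.00914). ORA47 went from -4.47 to -1.09 (interaction 3.38, SE 0.49, adjusted p 0.00788), and WRKY53 from -2.05 to -0.07 (interaction 1.98, SE 0.37, adjusted p 0.029). PUB25 went from -1.88 to -0.71 (interaction 1.17, SE 0.24, adjusted p 0.0489). These interactions use both treatments, and the water values of Col enter each of them. On the log2 scale, the mean of ORA47 was 11.25 in Col with water and 6.64 to 7.73 in all other groups of the series. STZ was at 11.59 against 8.85 to 10.52, and PUB25 at 9.21 against 7.17 to 7.88. WRKY53 differed from these, with 9.66 in Col with water and its highest means after BTH, 10.53 in Col and 10.46 in mil4.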

How the data were processed

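The values deposited by the authors are 1 linear intensity per probe set and array of the Affymetrix ATH1 design, in 1 table of 22810 probe sets. The trimmed mean (2% trimmed) of each array lay near 500, which shows a scaling to that target. Software, background correction and detection calls were not given in the sources used here. Low intensities hold mostly background, and such scaling takes the total signal as alike. The headers of the array files gave the hybridization time and module. Days were taken from those times, and runs were inferred here by grouping arrays with closely spaced times. From the deposited intensities, log2(intensity + 16) was computed here, 64 control probe sets were left out and 22746 were tested with limma 3.58.1 (R 4.3.3; lmFit, eBayes) on the 8 arrays, with Benjamini-Hochberg adjustment and a threshold of 0.05. The pseudocount understates the folds of dim probe sets, and the number of arrays limits the precision.

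GEO's platform annotation gave 13513 probe sets a single gene, 503 several genes and 8730 no name; 13436 matched a locus of RefSeq (TAIR10.1). The brightest probe set stood for a gene. Members and gene lists were chosen with earlier results of these data known. Genes were named by rule: the 12 largest rises and falls past the threshold without overlap, up to 4 members of the largest change and all passing members (up to 12) per list, and 5 interaction genes each way. CHI, ARL, SNZ, ccb206, BIK1, MYC3, MYC4, EIN3, COR15A, AT3G62930 and AT3G13980 fall outside it and were chosen after their values were seen. Alternatives changed the pseudocount, scaling, filters, blocks, weights, prior and arrays. Same-numbered arrays were not shown to be paired, with correlations of their deviations of 0.058, 0.138, 0.03 and 0.021. The procedure was tested on simulated data with independent noise, no day, run or module effect, and changes planted in brighter probe sets only. That test does not cover the dependence on single arrays or the dim probe sets.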

Additional observations from a re-analysis of the deposited data

Results flagged for a closer look

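Of 154 sets of 4 arrays examined for the genes named and the array measures, 16 held an array far from the other 3 by Dixon's ratio at its 95% critical value, and chance alone gives about 1 in 20. In mil4 with BTH, replicate 1 was the lowest for COR15A (0.835), and replicate 3 was the far array otherwise: highest for THI2.1 (0.842), BIK1 (0.906), ATERDJ3B (0.844) and the median intensity (0.868), and lowest for EXPB1 (0.933) and RCA (0.845). In Col with BTH, replicate 1 was the lowest for AT1G33950 (0.850), GH3.3 (0.888) and MCCA (0.864) and the highest for AT3G21670 (0.905). Replicate 2 of Col was the highest for AT3G54150 (0.947) and the lowest for PUB25 (0.838) and WRKY53 (0.966), replicate 3 the highest for AT3G06070 (0.849) and replicate 4 the lowest for MYC4 (0.854).

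The difference between mil4 and Col changed with treatment, by the interaction test of limma, for 8 of the 71 genes examined. Over all probe sets tested the share was 0.506%. The count of 8 follows in part from the choice of genes. AT4G15680, AT3G06070, ORA47 and STZ were named for their interaction, and AT3G62930 and AT3G13980 were chosen after their values were seen. The difference was lower after BTH than with water for AT4G15680 (log2 -2.11), AT3G06070 (-2.24), AT3G62930 (-1.69) and AT3G13980 (-0.97). It was higher for PUB25 (1.17), ORA47 (3.38), WRKY53 (1.98) and STZ (2.90).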

How the results depend on the processing

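After BTH, 201 probe sets passed, and 56 with a pseudocount of 1, 606 with one of 64, 808 among probe sets above the median brightness, 808 at an intensity of at least 100 on at least 4 arrays, 748 with all 24 arrays sharing the spread, 468 with array weights (50.6% higher, against 40.8%) and 873 with an intensity trend and robust prior. With the module as a block 241 passed, 58.1% of them higher, and 150 of the 201 were kept. Col replicates 1 to 3 and mil4 replicates 1 and 3 were on module 2, and the other BTH arrays on module 4. Leaving out 1 array gave 0 to 154. The replicate block gave 0, with 3018 at an unadjusted p under 0.05 by limma, as did the hybridization day, with 3382; the replicate numbers were not shown to pair the arrays. For the interaction, 115 passed, and 232 with a pseudocount of 64, 293 above the median brightness, 292 at an intensity of at least 100, 229 with all 24 arrays, 188 with array weights, 301 with the trend and robust prior, 48 with the replicate block and 43 to 180 without 1 array; centring arrays on their median moved the share higher from 61.7% to 50.4%. With water, 956 passed, and 1521 and 1595 with the brightness filters, 1684 with all 24 arrays, 1585 with the trend and robust prior, 324 with the replicate block, 490 with the day block and 543 to 772 without 1 array. The interaction with the module as a block could not be fitted, as no module held both BTH and water arrays of Col and mil4. Quantile normalization, centring on the median, the filter on probe sets that bind several transcripts and the run as a random block kept the count after BTH between 202 and 292. The causes of these shifts were not tested. No named gene changed its direction past the threshold. The values of dim probe sets rest on the pseudocount.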

Other observations

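Named loci that passed were found on all 5 nuclear chromosomes. The 118 of the 201 probe sets without a gene name could not be placed. The share of named loci that passed ran from 0.821% on chromosome 1 (28 of 3411) to 0.436% on chromosome 5 (13 of 2982), with 0.645%, 0.588% and 0.517% on chromosomes 2, 3 and 4. The probe set of the mitochondrial gene ccb206, chosen after its value was seen, was at 28.4, 33.8, 31.9 and 30.4 in mil4 and 74.6, 72.6, 54.6 and 58.8 in Col (log2 -0.78, SE 0.12, adjusted p 0.0383 by limma).

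Of 16 SWEET sugar transporters the log2 fold changes ran from -0.51 to 0.70, and 0 passed by limma, with 4 at an unadjusted p under 0.05, as had 13.9% of all probe sets tested. Of 11 autophagy genes the median was -0.02 and 0 passed, with 2 at an unadjusted p under 0.05. Of 7 WRKY factors the values ran from -0.40 to 0.33 and 0 passed, with 1 at an unadjusted p under 0.05.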
